A study of Mus musculus with 6 samples.

Results

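The colony-stimulating factors and their receptors were followed in sorted cells of mouse mammary tumours. They comprise 9 genes, 4 ligand genes (Csf1, Il34, Csf2 and Csf3) and 5 receptor genes (Csf1r, Csf2ra, Csf2rb, Csf2rb2 and Csf3r), out of 18193 genes with at least 1 probe set that names a single gene. All 9 were on the array, through 16 probe sets of their own. Each gene was read from its brightest probe set, by the mean of the 6 arrays. That choice did not use the groups, but arrays of both enter the mean, so it is not independent of the contrast. Of the 9, 8 passed the filter on dim probe sets and were tested among 15027 genes. Csf3r did not pass, and its values are given without a test.

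The tumours came from MMTV-Wnt-1 mice, in which the promoter of the mouse mammary tumour virus drives Wnt1 in the mammary gland. All 6 samples carry that transgene, so no normal gland is among them. Cells of 3 mice, TG1 to TG3 (here mice 1 to 3), were sorted by fluorescence into a population labelled tumorigenic (CD24+Thy+CD45-) and one labelled nontumorigenic (Not CD24+Thy+CD45-), each hybridised to 1 Affymetrix array per mouse. The labels give no age, strain or treatment, and the second gate's wording leaves unclear whether cells with CD45 were kept out of it. Values are log2 levels after RMA (robust multi-array average). Log2 differences are positive where the population labelled tumorigenic read higher, and replicates are separate mice.

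The colony-stimulating factors are secreted proteins named for the blood cell colonies they support. Csf1 (M-CSF) and Il34 (interleukin-34) bind the same receptor tyrosine kinase, Csf1r, on which macrophages depend for survival and growth. Csf2 (GM-CSF) binds a receptor made of a specific alpha chain, Csf2ra, and the common beta chain, Csf2rb, which signals through Jak2 and Stat5 and also serves interleukin-3 and interleukin-5. Mice carry a close copy of the beta chain gene, Csf2rb2, whose product pairs with the interleukin-3 receptor alpha chain. Csf3 (G-CSF) acts on neutrophils and their precursors through Csf3r. In mammary tumours, Csf1 made by tumour or stromal cells is known for drawing in macrophages.

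The arrays did not follow their labels in every respect. Ptprc, which encodes the CD45 antigen that the tumorigenic gate excludes, read 10.21, 7.76 and 3.82 in the labelled tumorigenic arrays of mice 1, 2 and 3 and 2.33, 3.59 and 2.51 in the labelled nontumorigenic arrays. Macrophage and monocyte markers followed the same order: 19 of 21 tested members had positive differences, and their summed linear level was 29468, 12030 and 1175 in labelled tumorigenic mice 1 to 3 against a range of 582 to 750 in the other population. Of these markers, Ccr2 lay below the dim threshold (2.98, under which the lowest 25% of probe set means fall) in all 3 labelled nontumorigenic arrays, and Itgam was too dim to be tested. The genes of the gate's positive markers were not higher throughout under the tumorigenic label. Cd24a, which encodes CD24, had a log2 difference of -0.55, reading 11.85 to 12.84 under that label and 12.84 to 12.99 under the other. Thy1 differed by 0.24, with 10.83, 10.51 and 9.33 for mice 1, 2 and 3 against 9.67 to 10.25. The mouse 3 array labelled tumorigenic was thus the lowest of all 6 in Thy1. The 18S control probe set ranged from 6.32 to 7.76 in the labelled tumorigenic arrays and from 8.52 to 8.97 in the others. The 3' excess of the Gapdh controls was 6.60 in labelled tumorigenic mouse 2 and between 2.41 and 3.81 elsewhere. The populations are therefore named by their labels, and the receptor values are also given for the labelled tumorigenic array of mouse 3 by itself. In sorted bulk RNA, a larger share of cells of a type and more RNA per cell cannot be told apart.

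Receptor genes gave higher values under the tumorigenic label, and ligand genes overlapped between the labels. The 4 tested receptor genes all had positive log2 differences, with a median of 2.88, and 3 of them, Csf1r, Csf2rb and Csf2rb2, had every labelled tumorigenic array above every labelled nontumorigenic one. The 4 ligand genes were split, 2 positive and 2 negative, with a median of 0.0078, and all overlapped. Over all genes tested the median was 0.0051. A gene with all labelled tumorigenic arrays on top was found in 6.9% of genes, and one with all of them at the bottom in 5.59%; among the 8 tested members the counts were 3 and 0. No member had a limma adjusted p below 0.05 (0 of 8, against 0% of all genes), and 3 of 8 had an unadjusted p below 0.05, against 8.5% of all genes. Each of the 8 had a labelled nontumorigenic mean above the dim threshold, the lowest being 3.27 for Csf2, so none was tested only because of the labelled tumorigenic arrays.

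**Figure D1:**
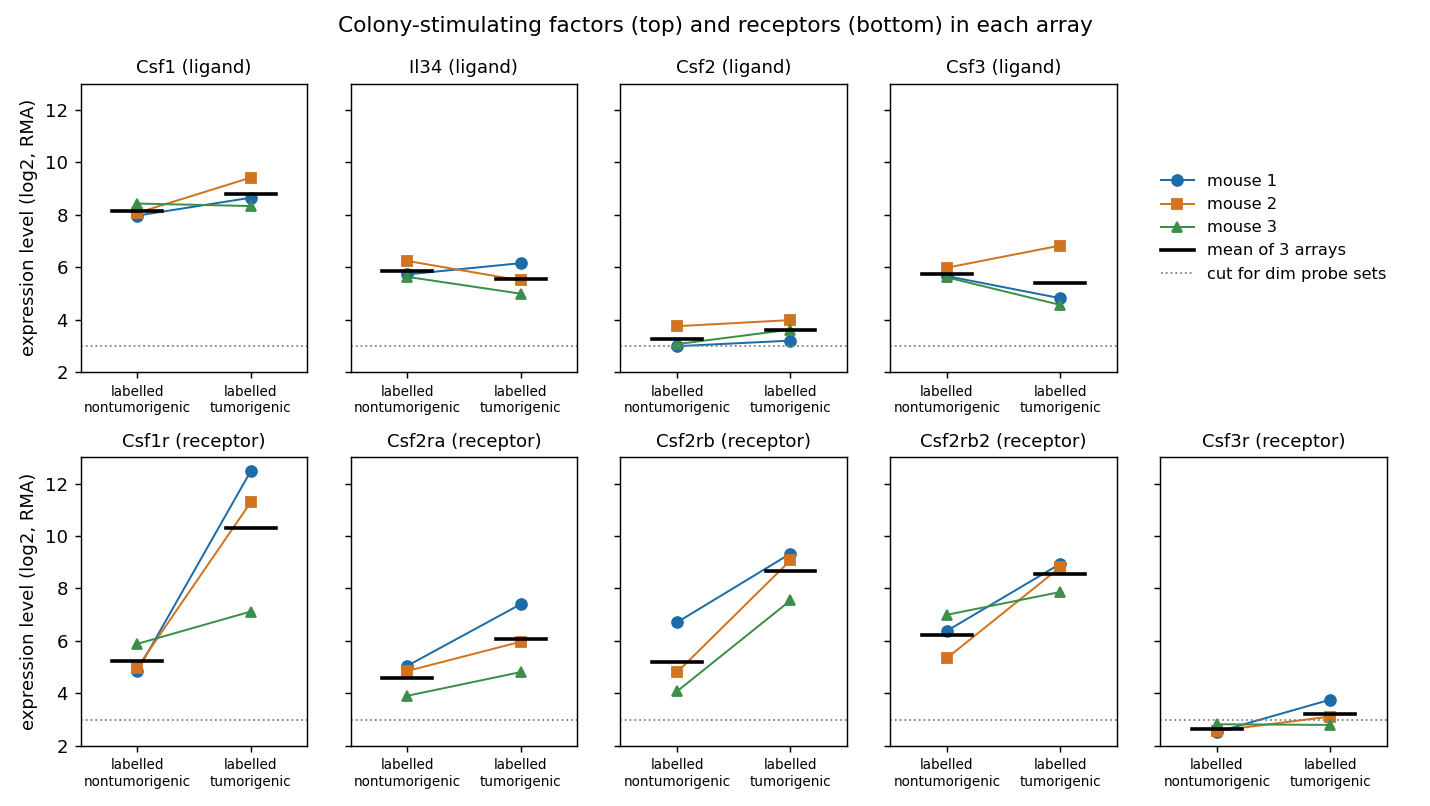
Level of each ligand gene (top row) and receptor gene (bottom row) on the log2 scale in each array, with lines joining the populations of a mouse, black bars for the mean of 3 arrays and a dotted line at the dim threshold of 2.98. Csf1r, Csf2rb and Csf2rb2 do not overlap between the labels, while the 4 ligand genes do.

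Csf1r, the macrophage growth factor receptor, showed the widest separation of the members. It read 12.47, 11.29 and 7.12 in the labelled tumorigenic arrays of mice 1, 2 and 3, and 4.86, 4.98 and 5.89 in the labelled nontumorigenic arrays. The labelled tumorigenic arrays of mice 1 and 2 were high, and that of mouse 3 lay much nearer to the other population without overlapping it. The population means, 10.29 ± 2.81 and 5.24 ± 0.56 (SD, n = 3 each), lay 5.05 log2 units or 33.2-fold apart (95% interval 1.78 to 8.32, SE 1.34), with a limma adjusted p = 0.449. Only 6 of the 15027 genes had a higher difference. Within mice the difference was 7.62, 6.31 and 1.23, the order of Ptprc and of the macrophage marker sum. In mice 1 and 2 Csf1r ranked 4th and 6th among all genes, and in mouse 3 it ranked 488th.

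The Csf1r result depended on 1 array in size and in call. When the mouse 3 array labelled tumorigenic was left out, Csf1r differed by 6.64 (SE 0.49) and the gene passed at a limma adjusted p = 0.0424, in a fit where 0.12% of genes passed. When mouse 3 was left out of both populations, which keeps the pairs, the difference was 6.96 (SE 0.46) but the gene did not pass (limma adjusted p = 0.202). That array alone lay 1.88 above the mean of the 3 labelled nontumorigenic ones, a value given without a test. Its Csf1r value still lay above all 3, as did 25.4% of all genes on that array and 3 of the 8 tested members. The other Csf1r probe sets had log2 differences of 4.14 and 1.98, and on both of them too every labelled tumorigenic array lay above every labelled nontumorigenic one. On these probe sets mouse 3 differed by 0.34 and 0.68. The 3 probe sets thus shared the direction and the order of mouse 1 above mouse 2 above mouse 3, but not the size.

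**Figure D2:**
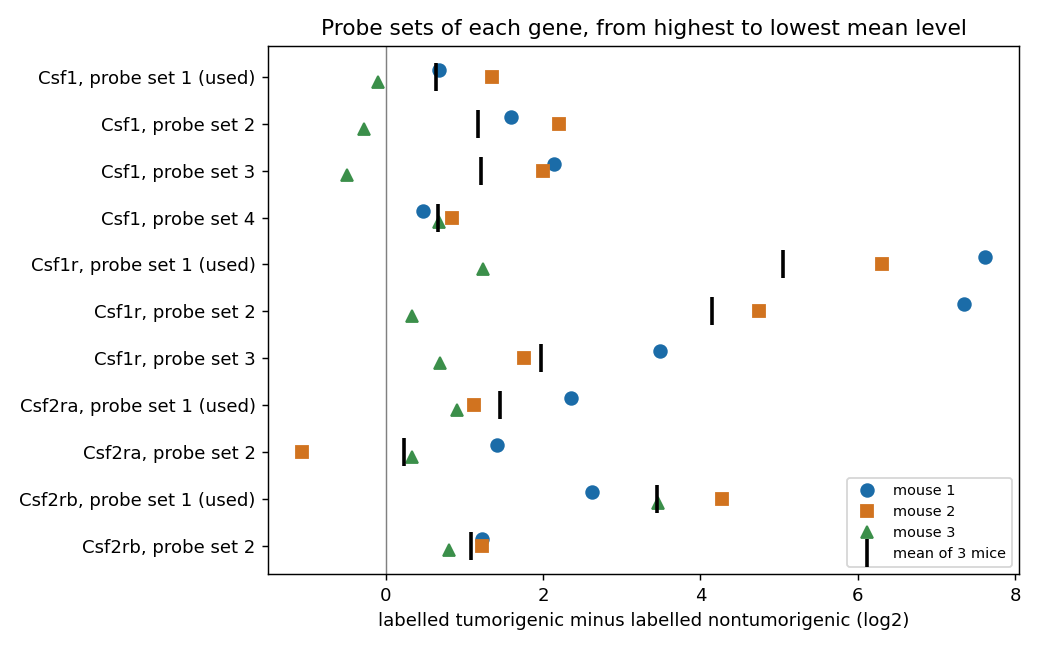
Log2 difference between the labels for every probe set of the 4 member genes with more than 1, in each mouse (symbols) and as the mean of the 3 mice (black bars). All Csf1r probe sets lie above 0 in each mouse, while the second Csf2ra probe set has mouse 2 below 0.

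Csf2rb, the signalling chain shared by the receptors of GM-CSF, interleukin-3 and interleukin-5, differed in every mouse. It read 9.33, 9.08 and 7.54 in the labelled tumorigenic arrays of mice 1, 2 and 3, and 6.71, 4.81 and 4.08 in the labelled nontumorigenic arrays. All labelled tumorigenic arrays lay above the other population, whose mouse 1 array was the highest of its group. The population means, 8.65 ± 0.97 and 5.20 ± 1.36 (SD, n = 3 each), lay 3.45 log2 units or 10.95-fold apart (95% interval 1.53 to 5.37, SE 0.79), with a limma adjusted p = 0.387. The within-mouse differences were 2.62, 4.27 and 3.47. On this probe set mouse 3, whose labelled tumorigenic array had the lowest Ptprc of that group, did not have the smallest difference. Csf2rb was there the gene with the 7th highest difference of all genes in that mouse. Mouse 3 as the only labelled tumorigenic array gave 2.35 against the 3 arrays of the other population, whose mouse 1 array pulls that mean up. The other Csf2rb probe set gave a smaller difference of 1.08, with 1.23, 1.22 and 0.80 in mice 1 to 3 and overlapping populations. On that probe set mouse 3 did have the smallest difference. The mean of both probe sets gave 2.27.

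Csf2rb2, the mouse copy that serves the interleukin-3 receptor, had the smallest unadjusted limma p of the members in the fit without a block. It read 8.94, 8.81 and 7.87 in the labelled tumorigenic arrays of mice 1, 2 and 3, and 6.39, 5.35 and 6.997 in the labelled nontumorigenic arrays. The populations did not overlap, and the gap was smallest in mouse 3. The population means, 8.54 ± 0.59 and 6.24 ± 0.83 (SD, n = 3 each), lay 2.30 log2 units or 4.92-fold apart (95% interval 1.09 to 3.50, SE 0.50), with a limma adjusted p = 0.346. Within mice the difference was 2.56, 3.47 and 0.87. With the mouse as a block the unadjusted limma p was 0.0115 for Csf2rb2 and 4.8e-04 for Csf2rb, the smallest of the members in that fit. The limma adjusted p of that fit was 0.425 for Csf2rb2 and 0.363 for Csf2rb. A further probe set is annotated to both beta chain genes and so names neither alone: it lay between 3.76 and 4.65 in all arrays, with a difference of 0.26. Csf2rb and Csf2rb2 are near copies, so how far a probe set of one reads the transcript of the other is uncertain.

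Csf2ra, the alpha chain that gives the receptor its specificity for GM-CSF, leaned the same way with overlapping populations. It read 7.40, 5.97 and 4.81 in the labelled tumorigenic arrays of mice 1, 2 and 3, and 5.05, 4.85 and 3.91 in the labelled nontumorigenic arrays. Each mouse had a positive difference, 2.35, 1.12 and 0.90, but the labelled tumorigenic array of mouse 3 lay below 2 arrays of the other population. The population means, 6.06 ± 1.30 and 4.60 ± 0.61 (SD, n = 3 each), differed by 1.46 (95% interval -0.20 to 3.12, SE 0.68), with a limma adjusted p = 0.630. With the mouse as a block the SE was 0.35 and the unadjusted p was 0.0121, against 0.0755 without it, and the limma adjusted p was 0.433. In that paired fit 4 of the 8 tested members, Csf2ra among them, had an unadjusted p below 0.05, against 9.55% of all genes. The difference was 0.79 when mouse 1 was left out of the labelled tumorigenic group, and 0.21 with mouse 3 alone in that group. The second Csf2ra probe set had a difference of 0.23, with mouse 2 at -1.06, so the probe sets of this gene did not share a pattern.

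Csf3r, the G-CSF receptor of neutrophils, was near the floor of the array. It read 3.76, 3.11 and 2.80 in the labelled tumorigenic arrays of mice 1, 2 and 3 and 2.52, 2.57 and 2.82 in the labelled nontumorigenic arrays. Its mean of 2.93 was just below the dim threshold of 2.98, while Csf2, the dimmest member that passed, had a mean of 3.43. The difference of 0.58 came from mouse 1 (1.23) and mouse 2 (0.54), with -0.026 in mouse 3. With no dim filter it was tested and had a limma adjusted p = 0.672.

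Csf1, the main ligand of Csf1r, was the ligand gene with the highest difference. It read 8.65, 9.42 and 8.33 in the labelled tumorigenic arrays of mice 1, 2 and 3, and 7.97, 8.07 and 8.43 in the labelled nontumorigenic arrays. Mice 1 and 2 were higher under the tumorigenic label and mouse 3 was not, with within-mouse differences of 0.68, 1.35 and -0.095. The population means, 8.80 ± 0.56 and 8.15 ± 0.24 (SD, n = 3 each), lay 0.64 log2 units or 1.56-fold apart (95% interval -0.12 to 1.41, SE 0.31), with a limma adjusted p = 0.635. Its 3 other probe sets gave 1.17, 1.21 and 0.67. On the first and second of these, mouse 3 was again the mouse with a negative difference, -0.27 and -0.50, and on the last it differed by 0.68. The Csf1 difference was 0.34 when mouse 2 was left out of the labelled tumorigenic group, and 0.18 with mouse 3 alone in that group.

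Il34, the other Csf1r ligand, leaned the opposite way. It read 6.15, 5.50 and 4.99 in the labelled tumorigenic arrays of mice 1, 2 and 3, and 5.72, 6.24 and 5.63 in the labelled nontumorigenic arrays. Mouse 1 was higher under the tumorigenic label and mice 2 and 3 were lower, by 0.43, -0.74 and -0.64. The population means differed by -0.32 (95% interval -1.15 to 0.51, SE 0.34), with a limma adjusted p = 0.820. It was -0.040 when mouse 3 was left out of the labelled tumorigenic group and -0.62 when mouse 1 was.

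Csf2, the GM-CSF gene, stayed close to the dim threshold in both populations. It read 3.20, 3.98 and 3.62 in the labelled tumorigenic arrays of mice 1, 2 and 3, and 2.99, 3.75 and 3.06 in the labelled nontumorigenic arrays. Mouse 2 was the highest in both populations. The population means differed by 0.33 (95% interval -0.40 to 1.07, SE 0.30), with a limma adjusted p = 0.787, and at this level a difference carries little information. It was 0.14 when mouse 2 was left out of the labelled tumorigenic group and 0.53 when mouse 1 was.

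Csf3, the G-CSF gene, was spread widely within the labelled tumorigenic arrays. It read 4.82, 6.83 and 4.56 in those of mice 1, 2 and 3, and 5.66, 5.98 and 5.61 in the labelled nontumorigenic arrays. Mouse 2 lay above the whole other population and mice 1 and 3 lay below it. The population means differed by -0.35 (95% interval -1.81 to 1.12, SE 0.60), with a limma adjusted p = 0.895. The labelled tumorigenic array of mouse 2, which also had the Gapdh 3' excess of 6.60, decided the size: without it the difference was -1.06 (limma adjusted p = 0.643). Without that of mouse 3 it was 0.071, and without that of mouse 1 it was -0.057. The part of RNA quality in the Csf3 values was not tested.

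**Figure D3:**
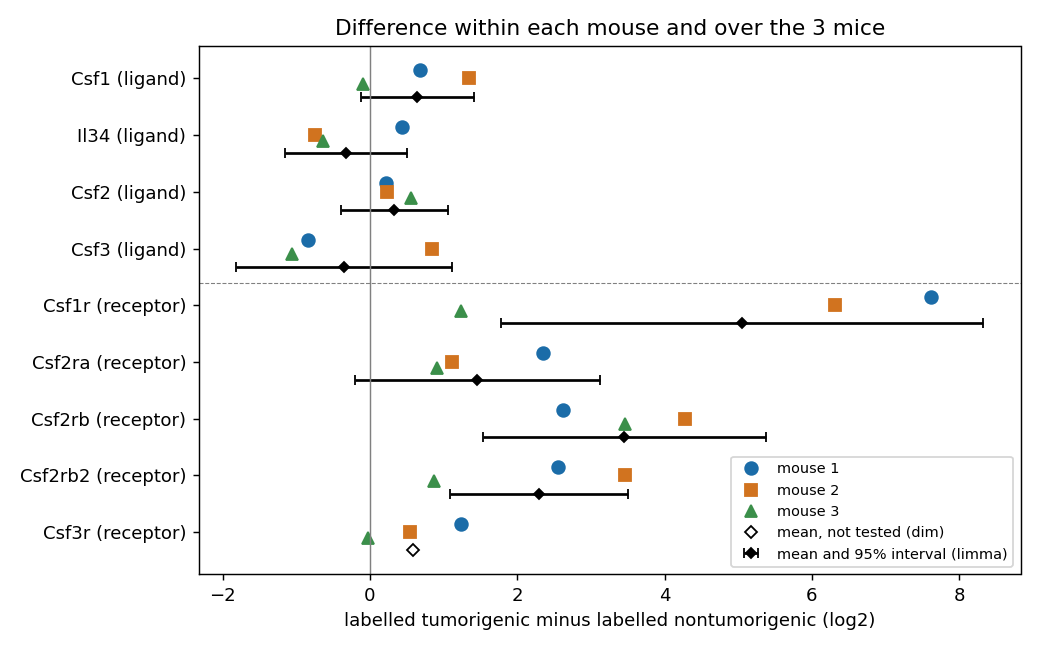
Log2 difference between the labels for each member, within each mouse (coloured symbols) and over the 3 mice (diamonds, with the 95% interval from limma; open for Csf3r, which was too dim to be tested). The intervals of Csf1r, Csf2rb and Csf2rb2 lie above 0 before adjustment, and those of the 4 ligand genes include 0.

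Receptor and ligand genes were next set against each other, as differences between the populations and not as levels, since levels of different probe sets are not comparable. Csf1r differed between the labels by 4.41 log2 units more than Csf1 and by 5.37 more than Il34. For Csf1r over Csf1 the values of mice 1 to 3 were 6.94, 4.96 and 1.33. Csf2rb exceeded Csf2 by 3.12, with 2.41, 4.04 and 2.91 in mice 1 to 3. These 3 comparisons were positive in 3 of 3 mice. Each had an exact two-sided permutation p of 0.1, the smallest that 3 arrays against 3 allow, or 0.167 after adjustment over the 5 pairs. This design therefore cannot pass 0.05. An exact sign-flip test over the 3 mice, which keeps the pairs, gave p = 0.25 for each of these comparisons. That is the smallest two-sided p that 3 mice allow in that test. Csf2ra exceeded Csf2 by 1.12 (exact permutation p = 0.3, adjusted 0.375). It too was positive in 3 of 3 mice, with 2.14, 0.88 and 0.35 and an exact sign-flip p of 0.25. Csf3r exceeded Csf3 by 0.93 (exact permutation p = 0.4, adjusted 0.4) and was positive in 2 of 3 mice. With the labelled tumorigenic array of mouse 3 set alone against the other population, Csf1r exceeded Csf1 by 1.70 and Il34 by 2.75. Csf2rb there exceeded Csf2 by 1.99, and Csf2ra over Csf2 turned to -0.14. Against the labelled nontumorigenic array of mouse 3 only, Csf2ra over Csf2 was positive, at 0.35. The choice of probe set also set the size. With the probe sets of a gene averaged, Csf1r exceeded Csf1 by 2.80 and Il34 by 4.04. Csf2rb then exceeded Csf2 by 1.93 (exact permutation p = 0.2) and Csf2ra exceeded Csf2 by 0.51 (exact permutation p = 0.9).

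The receptor genes did not share one order over the mice. Csf1r had the mouse order of the macrophage and monocyte markers, whose median within-mouse differences were 5.39, 4.17 and 0.76. The 4 of these markers with the smallest limma p, C1qb, Mrc1, Ctss and Laptm5, differed in mouse 3 by 3.94, 2.93, 1.24 and 4.70. The endothelial markers had medians of 0.90, 2.07 and 1.48, an order shared by the Csf2rb probe set used. Csf2rb2 was likewise highest in mouse 2 but was smallest in mouse 3, where the endothelial markers were smallest in mouse 1. The other Csf2rb probe set had 1.23, 1.22 and 0.80 in mice 1 to 3, also smallest in mouse 3. All 10 endothelial markers had positive differences and 9 did not overlap, against 6.9% of all genes, with a summed linear level of 1789 to 3161 in the labelled tumorigenic arrays and 619 to 1074 in the others, and none lay below the dim threshold throughout a population. Robo4, a guidance receptor of vessels, and Cldn5, a tight junction protein of endothelium, had log2 differences of 2.11 and 2.41. Neutrophil and granulocyte markers were mixed: 3 of 9 tested were positive, with a median of -0.12, their summed level was 1770 to 4428 against 3850 to 7615, and Mpo, Elane and Cxcr2 were too dim to be tested. Among these markers the antimicrobial protein Ltf, which milk-producing epithelium also makes, differed by -2.79. It read 7.59 to 8.62 in the labelled tumorigenic arrays and 10.19 to 11.91 in the others. S100a9, a calcium-binding protein abundant in neutrophils and monocytes, differed by 1.56, with 2.30, 1.91 and 0.46 in mice 1 to 3 and every labelled tumorigenic array on top, at a limma adjusted p = 0.5. The gelatinase Mmp9 differed by 0.75, with 1.75, 1.71 and -1.21 in mice 1 to 3. What part macrophage or endothelial cells, RNA quality or the 18S difference had in the receptor values was not tested.

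**Figure D4:**
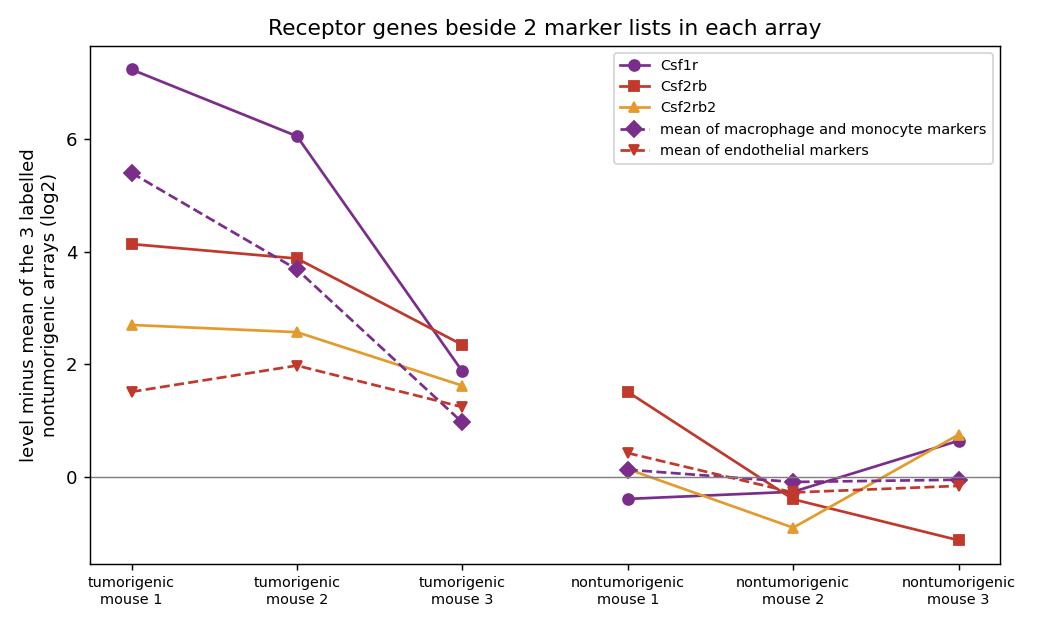
Level of Csf1r, Csf2rb and Csf2rb2 (solid lines) and mean level of the macrophage and monocyte and the endothelial markers (dashed lines) in each array, as log2 units above the mean of the 3 labelled nontumorigenic arrays. Csf1r and the macrophage markers drop steeply at labelled tumorigenic mouse 3, and Csf2rb stays highest of the 5 there.

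Genes whose profile over the 6 arrays lay nearest to a member, as the root mean square distance after centring each gene on its own mean, differed between Csf1r and Csf2rb. Nearest to Csf1r were the lysosomal protease Ctss (distance 0.44 log2 units), the coagulation factor subunit F13a1 (0.45), the MHC class II chain H2-Ab1 (0.50), the surface protein Cd83 (0.50) and the chemokine Ccl8 (0.50), where the median of all genes was 3.04. Nearest to Csf2rb were Gpihbp1, which anchors lipoprotein lipase on capillary endothelium (0.78), the membrane protein Tmem88 (0.80), Flt4, a receptor for vascular endothelial growth factor C (0.80), the sialyltransferase St3gal6 (0.82) and the GTPase regulator Arap3 (0.85), against a median of 1.997. Nearest to Csf1 were Gp1bb (0.090), the RNA editing enzyme Adar (0.095), S100a13 (0.10), Arhgef7 (0.11) and Ints6 (0.11), against a median of 0.56. The Csf1 profile spans little, so many genes lie close to it. These distances over 6 arrays describe the libraries and carry no test.

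Lists of signalling genes downstream of the receptors had medians of 0.14 to 0.22, with single genes well above that. Of 16 tested genes of Csf1r signalling, 0 passed the limma adjusted threshold and 4 had an unadjusted p below 0.05, against 8.5% of all genes; all 4 had positive differences, with a list median of 0.22 against 0.0051 over all genes. These were the adaptor Tyrobp, which couples myeloid receptors to Syk (4.34), the docking protein Dok1 (0.80), the adaptor Grb2 (0.55) and the lipid phosphatase Inpp5d (1.82). Tyrobp, also on the macrophage marker list, had a larger difference than Csf2rb and the mouse order of Csf1r, with 6.38, 5.66 and 0.997 in mice 1 to 3.

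Genes of the common beta chain and Jak2-Stat5 pathway had a median of 0.14 over 13 tested members, with 0 past the limma adjusted threshold and 1 of 13, Stat5a, at an unadjusted p below 0.05, a share near the 8.5% of all genes. Stat5a, the transcription factor that the beta chain receptors activate and that also serves prolactin in the gland, read 9.80, 9.46 and 9.84 in the labelled tumorigenic arrays of mice 1, 2 and 3 and 10.23, 10.17 and 10.24 in the others. All its labelled tumorigenic arrays lay below the other population, as in 5.59% of all genes, and the means differed by -0.51 (SE 0.17), with a limma adjusted p = 0.522. Il3ra, the partner of the Csf2rb2 product, differed by 0.94, with 1.78, 1.61 and -0.58 in mice 1 to 3. The phosphatase Ptpn6 differed by 0.65 and the survival protein Mcl1 by -0.16. The ligand genes Il3 and Il5 and the receptor gene Il5ra were too dim to be tested. For G-CSF receptor signalling, 0 of 8 tested genes passed the limma adjusted threshold and 1 of 8, Grb2, had an unadjusted p below 0.05, against 8.5% of all genes, with a median of 0.17. There Stat3 differed by -0.31 and the kinase Tyk2 by 0.46.

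Myeloid transcription factors had 0 of 15 past the limma adjusted threshold and 0 at an unadjusted p below 0.05, against 8.5% of all genes, with a median of 0.19, 12 positive and 3 negative. Spi1, which encodes PU.1, a factor known to drive Csf1r and other myeloid genes, read 5.33, 4.30 and 3.56 in the labelled tumorigenic arrays of mice 1, 2 and 3 and 3.58, 3.56 and 3.66 in the others. It had the mouse order of Csf1r, at the level of the other population in mouse 3. Irf8 differed by 1.04, with 2.57, 1.30 and -0.76 in mice 1 to 3. Irf4 differed by 2.02 (3.63, 1.15 and 1.28) and Cebpa by 0.43 (0.83, 0.0 and 0.45). Relatives of Csf1r and their ligands had a median of 0.027 over 9 tested genes, with 0 past either threshold by limma: the stem cell factor receptor Kit differed by -1.34 and the ligands Pdgfd, Pdgfb and Pdgfa by 0.97, 1.05 and -0.23.

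Of the reported partners of Il34 other than Csf1r, 0 of 3 passed the limma adjusted threshold. The receptor phosphatase Ptprz1 had an unadjusted p below 0.05 and a difference of -2.24 (SE 0.69), at a limma adjusted p = 0.5, with every labelled tumorigenic array below the other population, as in 5.59% of all genes. Trem2 differed by 1.30, with 2.78, 1.11 and 0.0 in mice 1 to 3, and the proteoglycan Sdc1 by -0.21. Among inducers of colony-stimulating factor transcription, 0 of 10 passed the limma adjusted threshold and 2 had an unadjusted p below 0.05, against 8.5% of all genes, with a median of 0.29. The cytokine Il1b read 8.59, 8.51 and 4.75 in the labelled tumorigenic arrays of mice 1, 2 and 3 and 4.51, 4.64 and 3.54 in the others, a difference of 3.05, and the tumour necrosis factor receptor Tnfrsf1a differed by 0.50. Both had every labelled tumorigenic array on top, 2 of 10 against 6.9% of all genes.

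Markers of other cell types that the sorted populations could hold gave the following values. Luminal epithelial markers were negative in 10 of 10 (median -1.67, summed level 1943 to 8614 against 12563 to 14794), led by Ehf at -2.19, Elf5 at -3.10 and Krt19 at -2.92. Basal and myoepithelial markers were positive in 9 of 10 (median 0.45, summed level 13890 to 21981 against 11886 to 14895), with Tagln at 0.64. Their median came mostly from mouse 3, at 1.28 against -0.036 and 0.13 in mice 1 and 2. On its labelled tumorigenic array 8 of the 10 lay above the whole other population, against 25.4% of all genes. On all 3 arrays 1 of 10 did so, against 6.9% of all genes. Fibroblast markers had a median of 0.17 (11618 to 27350 against 17573 to 20421), with Fbln2 at 0.57, and the mice differed in sign, at 0.79, 0.50 and -0.82. T and NK cell markers had a median of 1.16 that came from mouse 1 (3.63, against 0.058 and -0.064 in mice 2 and 3), with a summed level of 89.0 to 2388 against 215 to 244. Dendritic cell markers had a median of 0.027 over 7 tested, where Itgax differed by 5.28, 3.13 and -6.5e-04 in mice 1 to 3. Mast cell, basophil and eosinophil markers were at a median of -0.014 over the 4 tested, and 6 others, Cpa3 among them, were too dim.

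Of the 9 members, 5 had an entry in the RefSeq table of promoters (build GRCm38.p6, from 250 bases before to 50 after a gene's start), namely Csf1, Csf2, Csf2ra, Csf2rb2 and Csf3r. Shown are Csf2rb2, which separated the labels, Csf2ra, the alpha chain that did not, and Csf1, the ligand of the receptor with the widest separation. Capitals mark each GAGGAA or its reverse complement TTCCTC, the core that PU.1 favours. The windows are chr15:78305672-78305971, chr19:61228369-61228668 and chr3:107760420-107760719, all on the minus strand and written 5′ to 3′ along the gene.
Csf2rb2: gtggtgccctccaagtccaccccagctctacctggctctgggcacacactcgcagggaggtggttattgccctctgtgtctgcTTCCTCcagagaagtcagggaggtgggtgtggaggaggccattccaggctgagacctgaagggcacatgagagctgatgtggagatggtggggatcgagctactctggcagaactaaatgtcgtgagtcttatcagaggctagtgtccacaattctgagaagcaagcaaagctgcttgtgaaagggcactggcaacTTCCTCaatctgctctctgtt
Csf2ra: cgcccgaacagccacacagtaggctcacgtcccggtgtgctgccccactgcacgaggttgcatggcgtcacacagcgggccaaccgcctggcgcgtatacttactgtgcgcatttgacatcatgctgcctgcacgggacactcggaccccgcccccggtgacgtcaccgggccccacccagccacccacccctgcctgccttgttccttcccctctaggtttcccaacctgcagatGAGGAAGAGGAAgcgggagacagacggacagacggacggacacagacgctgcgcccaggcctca
Csf1: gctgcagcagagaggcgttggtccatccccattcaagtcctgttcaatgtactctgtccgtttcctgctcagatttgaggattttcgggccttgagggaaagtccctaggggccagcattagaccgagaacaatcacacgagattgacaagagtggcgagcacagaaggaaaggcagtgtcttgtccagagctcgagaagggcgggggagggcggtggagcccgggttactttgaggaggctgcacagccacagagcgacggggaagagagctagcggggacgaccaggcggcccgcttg
GAGGAA occurred on either strand in 28.3% of the 32851 promoters of this length, 2 times each in Csf2rb2 and Csf2ra, 1 time in Csf3r and not in Csf1 or Csf2. The longer form GAGGAAGT, found in 3.2% of promoters, occurred among the 5 in Csf2rb2. The motif was thus present in Csf2rb2, the only member with an entry that separated the labels, and in Csf2ra and Csf3r, which did not. A match describes the letters in the window and not a bound site.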

How the data were processed

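Sorted cells of 3 MMTV-Wnt-1 mice were profiled on 6 arrays, 3 per population. The deposited values are log2 levels per probe set, normalised by the authors with RMA, per the submitters' processing notes; its version is not given in the sources used here. RMA sets arrays to a common distribution, so a shift of most transcripts is removed. Array medians were 4.36 to 4.40. Arrays have no depth, and their number limits the precision.

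Of 45101 probe sets, 64 controls and the 25% with the lowest mean over all arrays (below 2.98) were left out. Genes were named from probe sets with 1 symbol in the platform annotation, with symbols checked by Entrez identifier against RefSeq (GRCm38.p6). Each gene was read from its brightest probe set. For Csf1r, Csf2rb and Csf2ra this was the probe set with the largest difference, and for Csf1 the one with the smallest.

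Populations were compared with limma 3.58.1 in R 4.3.3 (lmFit, eBayes) over all genes without covariates, with two-sided p-values adjusted by the Benjamini-Hochberg method at 0.05. The script was tested on simulated data with 200 altered genes. Receptor and ligand differences were compared by exact permutation, with an exact sign-flip test over the mice as an alternative. The mouse numbers pair the arrays, since the titles name the same animals in both populations; after centring each population, the arrays of mice 1, 2 and 3 correlated over genes at 0.079, 0.14 and 0.086 with their partners. A blocked fit was an alternative. Lists were described by counts and medians, with no set test. Named were all members, up to 4 genes per list with the smallest p, and the 5 nearest profiles of Csf1r, Csf2rb and Csf1. Members, lists and alternatives were chosen with earlier results of these data known.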

Additional observations from a re-analysis of the deposited data

How the results depend on the processing

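Each result was recomputed with the mouse as a block, other dim filters, renewed quantile normalization, median centring, another prior, array weights, probe sets averaged per gene, without each array or mouse, and with the labelled tumorigenic array of mouse 3 alone. With the mouse as a block (replicate block), the paired fit changed no call: 0 genes and 0 members passed by limma, and adjusted p was 0.438 for Csf1r, 0.363 for Csf2rb and 0.425 for Csf2rb2. The count of genes past the limma threshold, 0 in the main analysis, was 1 with no dim filter and 1 with the mean of probe sets, and ranged from 0 to 18 on leaving out arrays or mice; that of members ranged from 0 to 1, the 1 being Csf1r with mouse 3 left out of the labelled tumorigenic group. On leaving out arrays or mice, the difference ranged from 3.77 to 6.96 for Csf1r, 2.89 to 4.21 for Csf2rb, 1.71 to 3.01 for Csf2rb2, 0.79 to 2.08 for Csf2ra, 0.29 to 1.01 for Csf1, 0.14 to 0.57 for Csf2, -0.69 to -0.040 for Il34, and -1.06 to 0.071 for Csf3, which changed sign when mouse 3 was left out of the labelled tumorigenic group (0.071) or of both groups (9.5e-04). With the labelled tumorigenic array of mouse 3 alone, the Csf3r difference was 0.16, and that of Csf2ra minus that of Csf2 was -0.14. Within mouse 3, which keeps the pair, the latter was 0.35. The cause was not tested. At 50% the dim filter dropped Csf2. Median centring and quantile normalization changed no direction or call of a member. Levels near the dim threshold, those of Csf2 and Csf3r, limit what can be seen there.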
